A study of Felis catus with 6 samples.

Results

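Transcripts of 5 secreted factors, IL6, IL18, CSF3, GDF15 and HGF, were followed in senescent feline kidney cells with and without a peptide. They were selected by gene name, as the non-chemokine factors of the senescent secretome to be examined in the deposited table, and all 5 were found among its 633 genes. PETCC2610 is a feline kidney cell line, here 1 line in every library. The 3 libraries of the first group, labelled DOX, came from cells made senescent with DOX, an abbreviation that the labels do not spell out. The 3 libraries of the second group, labelled DOX+PeptideE, came from cells given DOX together with peptide E, a peptide from a fermentation of Bifidobacterium adolescentis. All 6 libraries therefore carry the DOX treatment, cells without DOX were not analysed here, and neither doses nor times are given in the labels.

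Senescent cells leave the cell cycle for good but stay metabolically active and secrete a mixture of cytokines, growth factors and proteases that acts on their neighbours. IL6 signals through the shared receptor subunit gp130 to STAT3, and IL18 is made as a precursor that inflammasome caspases cut. CSF3, also called G-CSF, drives the production of neutrophils. GDF15 is a distant TGF-beta family member that damaged or stressed cells release, and HGF is a growth factor that binds the receptor tyrosine kinase MET and supports repair of tubular epithelium in the kidney.

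The authors listed only genes that they called different between the same 6 libraries, with 340 of the 633 listed lower in DOX+PeptideE. A lower value of a listed gene is thus partly a property of the table. For the same reason the p-values given below are too small for every gene. Passing a threshold is no independent evidence of a change. The values are normalized expression values with no unit in the header, and the depth of the libraries is unknown. Whether the values are per transcript length is not stated, so the levels of different genes are given side by side and were not ranked against each other. The series calls the 3 libraries of a group biological replicates without saying how cultures were separated, so the p-values measure the spread between these libraries. In bulk RNA, fewer cells expressing a gene and less RNA per cell cannot be told apart.

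The mean of each of the 5 factors was lower in the DOX+PeptideE libraries, at 63.7% to 74.1% of the DOX mean. Of the 4 that reached the level needed for testing, IL6, IL18 and GDF15 fell past the threshold in limma (Benjamini-Hochberg adjusted p below 0.05), while CSF3 did not pass. Over the whole table, 23.6% of the 499 tested genes were lower and past this threshold. HGF lay below the level needed, a mean expression value of at least 1 in 1 or both groups. The groups did not overlap for IL6, GDF15 and HGF, 3 of the 5, against 32.7% of all listed genes that lay wholly below DOX. The median limma log2 fold change was -0.43 over the 4 tested factors, -0.22 over all 499 tested genes and -0.41 over the 257 tested genes that were lower. These counts and medians describe genes that were already listed for their difference.

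**Figure D1:**
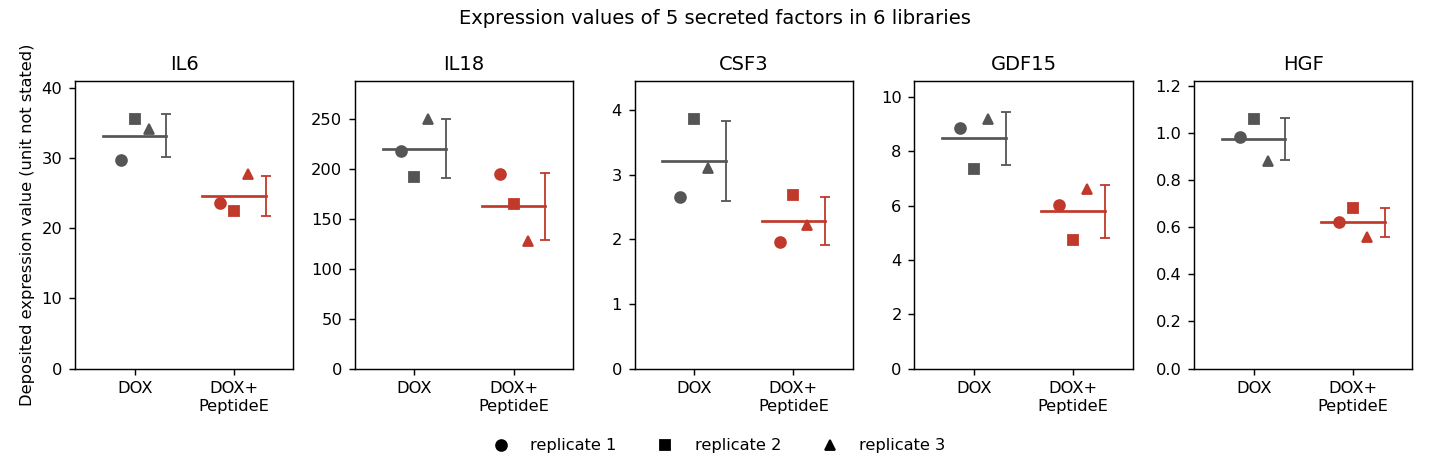
Deposited expression value (vertical axis from 0, unit not stated) of each factor in the 3 DOX libraries (grey) and the 3 DOX+PeptideE libraries (red). Symbols mark the replicate number, lines the group mean and bars 1 SD. The groups are separate for IL6, GDF15 and HGF and overlap for IL18 and CSF3.

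IL6, the inflammatory cytokine named in the series title, stood at expression values of 29.73, 35.62 and 34.18 in DOX replicates 1, 2 and 3. It stood at 23.54, 22.43 and 27.79 in DOX+PeptideE replicates 1, 2 and 3. Every DOX+PeptideE library lay below every DOX library, with 1.94 units between the nearest values. The mean fell by 25.9%, from 33.2 ± 3.07 to 24.6 ± 2.83 (SD, n = 3 each). On the scale of log2(value + 1) limma put IL6 at -0.42 (95% interval -0.76 to -0.08), its standard error being 0.16 (Benjamini-Hochberg adjusted p = 0.0315). The 2-sided exact permutation test gave p = 0.1, the smallest that 3 against 3 libraries allow. The limma call was lost without DOX replicate 2 (log2 fold change -0.37, adjusted p = 0.0931), DOX replicate 3 (-0.40, 0.121) or DOX+PeptideE replicate 2 (-0.36, 0.125). Over all alternatives the adjusted p of IL6 ranged from 0.00833 to 0.125 in limma. IL6 was picked out by the study on these libraries, so its change is not independent evidence.

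IL18, a cytokine of the IL-1 family, stood at 218.7, 192.34 and 250.76 in DOX replicates 1, 2 and 3. In DOX+PeptideE replicates 1, 2 and 3 it stood at 194.89, 165.55 and 128.16. The groups overlapped, since DOX+PeptideE replicate 1 lay 2.55 units above DOX replicate 2. IL18 varied more between the DOX+PeptideE libraries (coefficient of variation 20.5%) than the other 4 factors did (9.68% to 16.6%), a description over 3 libraries. Its mean fell by 26.2%, from 221 ± 29.3 to 163 ± 33.4 (SD, n = 3 each), and limma put the log2 fold change at -0.45, with a 95% interval of -0.83 to -0.06 and a standard error of 0.18 (adjusted p = 0.0397). The 2-sided exact permutation test gave p = 0.2. Of the 3 calls, that of IL18 was lost under the most alternatives run. In limma it was lost without DOX replicate 1 (log2 fold change -0.45, adjusted p = 0.0998), DOX replicate 3 (-0.35, 0.169), DOX+PeptideE replicate 2 (-0.47, 0.0933) or DOX+PeptideE replicate 3 (-0.29, 0.123). It was also lost when the variance trend was left out of limma (-0.45, adjusted p = 0.0536). Over all alternatives the limma adjusted p of IL18 ranged from 0.0052 to 0.169.

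CSF3 stood at 2.65, 3.87 and 3.11 in DOX replicates 1, 2 and 3. It stood at 1.96, 2.69 and 2.22 in DOX+PeptideE replicates 1, 2 and 3. The groups met at their edges, with DOX+PeptideE replicate 2 lying 0.04 units above DOX replicate 1. Means were 3.21 ± 0.616 and 2.29 ± 0.37 (SD, n = 3 each), and the limma log2 fold change of -0.35 had a standard error of 0.18 and a 95% interval of -0.75 to 0.05 (adjusted p = 0.093). The 2-sided exact permutation test gave p = 0.2. A change of CSF3 was therefore not shown on the deposited scale, nor was its absence, since the interval reaches values below those of IL6, IL18 and GDF15. Over all alternatives the limma adjusted p of CSF3 ranged from 0.00833 to 0.287.

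GDF15 stood at 8.86, 7.36 and 9.20 in DOX replicates 1, 2 and 3. It stood at 6.01, 4.73 and 6.61 in DOX+PeptideE replicates 1, 2 and 3. The groups were separate by 0.75 units. The mean fell by 31.7%, from 8.47 ± 0.979 to 5.78 ± 0.96 (SD, n = 3 each), with a limma log2 fold change of -0.49, a standard error of 0.18 and a 95% interval of -0.88 to -0.10 (adjusted p = 0.0308). The 2-sided exact permutation test gave p = 0.1, the smallest possible. The limma call was lost without DOX replicate 1 (log2 fold change -0.46, adjusted p = 0.0965), DOX replicate 3 (-0.43, 0.125) or DOX+PeptideE replicate 2 (-0.37, 0.144). Over all alternatives the limma adjusted p of GDF15 ranged from 0.00678 to 0.144.

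HGF, the growth factor of the group, stood at 0.98, 1.06 and 0.88 in DOX replicates 1, 2 and 3. It stood at 0.62, 0.68 and 0.56 in DOX+PeptideE replicates 1, 2 and 3. The groups were separate by 0.20 units, and the coefficients of variation were 9.27% and 9.68%, so this low transcript was not the most variable of the 5. Means were 0.973 ± 0.0902 and 0.62 ± 0.06 (SD, n = 3 each), the lowest ratio among the 5 factors, and the 2-sided exact permutation test gave p = 0.1. At so low a level the pseudocount of 1 compresses the change, and the difference in mean log2(value + 1) was -0.28. With every listed gene in the limma fit, HGF passed the threshold (adjusted p = 0.0263, standard error 0.09). That call held without DOX+PeptideE replicate 1 (limma adjusted p = 0.0245) and was lost without each of the other 5 libraries, at adjusted p of 0.0581 to 0.0745 and log2 fold changes of -0.32 to -0.25. Values are deposited with 2 decimals, and counting error at this level is unknown.

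The comparison was also made by the authors. In the authors' deposited table the fold changes of DOX+PeptideE over DOX were 0.610 for IL6, 0.623 for IL18, 0.617 for CSF3, 0.562 for GDF15 and 0.638 for HGF. HGF, lowest of the 5 by the ratio of deposited means, thus has the highest fold change of the 5 there. For the adjusted p, the authors' deposited table gives 0.00192 for IL6, 0.00684 for IL18 and 0.0091 for GDF15. It was 0.11 for CSF3 and 0.147 for HGF, so the authors' deposited table has 3 of the 5 below 0.05. Among all 633 genes of the authors' deposited table, 24.2% were lower with an adjusted p below 0.05.

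For IL6, IL18, CSF3 and GDF15 these fold changes are lower than the ratios of the deposited means, while for HGF both are 0.64. Library factors that bring the values onto the scale of those fold changes were therefore fitted. They were 1, 0.968 and 1.02 for DOX replicates 1, 2 and 3, and 0.884, 0.867 and 0.727 for DOX+PeptideE replicates 1, 2 and 3. With them the limma log2 fold changes of all tested genes shifted by a median of -0.23. The shift was -0.26 for IL6, -0.27 for IL18, -0.18 for CSF3 and -0.23 for GDF15. Each library factor multiplies all genes of its library alike, so a shift common to the tested genes was fixed in advance. All 4 tested factors then passed in limma, CSF3 included, at -0.53 (adjusted p = 0.0122), beside 49.3% of tested genes that were lower and passed. Calls over the table were 237 higher and 118 lower as deposited, and 228 higher and 246 lower after rescaling. Because the factors were fitted to fold changes on which the genes had been selected, a pass on this scale is no separate evidence.

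After rescaling, the groups did not overlap for any of the 5 factors, beside 45% of all listed genes that then lay wholly below DOX. IL6 drew together to 20.8, 19.5 and 20.2 in DOX+PeptideE replicates 1, 2 and 3, a coefficient of variation of 3.36% against 11.5% as deposited. IL18 spread out instead, to 172, 144 and 93.1, with a coefficient of variation of 29.4%. The 3 DOX+PeptideE libraries thus held nearly equal rescaled IL6, at 59% to 63.1% of the DOX mean, while rescaled IL18 ran from 42.4% to 78.4% of it. The recovered factors left CSF3 at a log2 ratio of means of -0.75, beside -0.70 in the authors' deposited table. They did not bring HGF onto the authors' value. Its log2 ratio of means was -0.65 as deposited and -0.91 after rescaling, beside a log2 fold change of -0.65 in the authors' deposited table, so the rescaled values of HGF are uncertain.

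**Figure D2:**
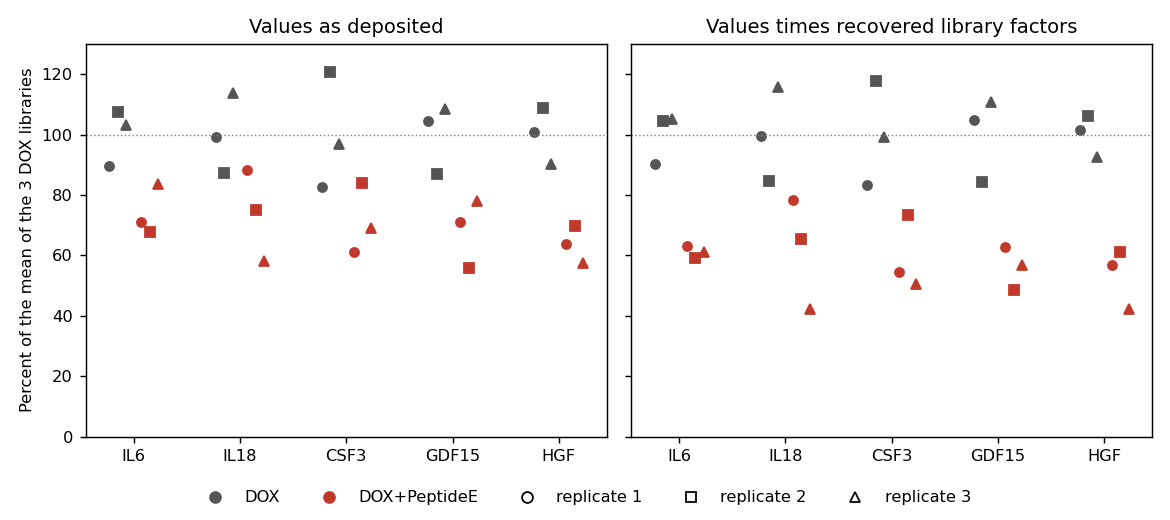
Value of each factor in each library as a percentage of its mean over the 3 DOX libraries, as deposited (left) and times the recovered library factors (right). Grey marks DOX, red DOX+PeptideE, and symbols the replicate number. In the right panel the IL6 values of DOX+PeptideE lie between 59% and 63.1% and those of IL18 between 42.4% and 78.4%.

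A ratio of 2 factors within a library does not depend on the library scale. Among the 10 pairs of factors, none had ratios that separated the groups. The mean log2 ratio of DOX+PeptideE differed from that of DOX by 0.02 for IL6 over IL18 and by up to 0.22, for IL6 over HGF. For IL6 over HGF the 3 DOX libraries had log2 ratios of 4.92, 5.07 and 5.28, and the 3 DOX+PeptideE libraries 5.25, 5.04 and 5.63. A difference in change between any of the 5 factors was therefore within the spread between libraries. These ratios were not tested and were not computed for pairs of other listed genes. The overlap does not show that the factors changed alike.

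**Figure D3:**
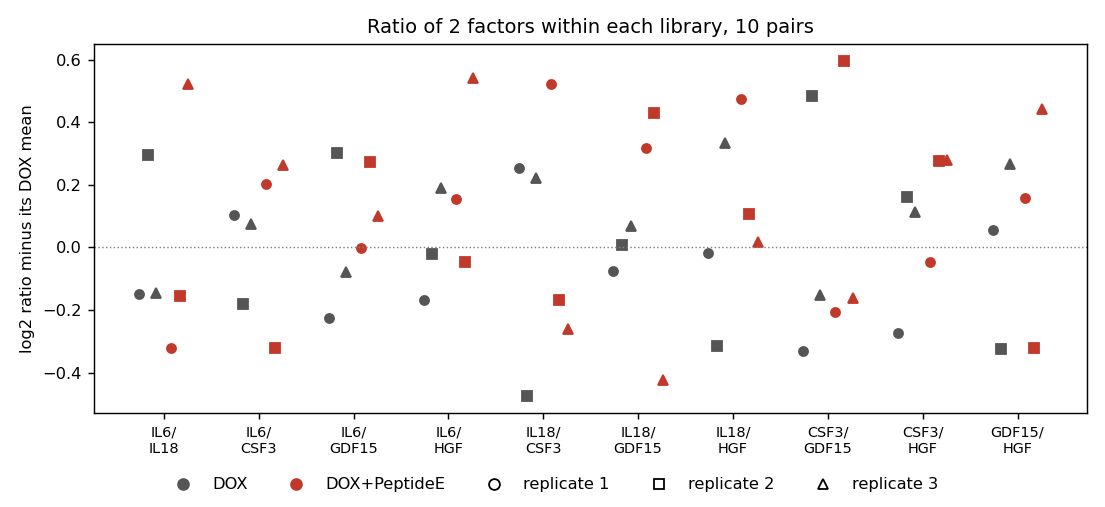
log2 ratio of each pair of factors within each library, minus the DOX mean of that ratio, for 3 DOX libraries (grey) and 3 DOX+PeptideE libraries (red). Symbols mark the replicate number. The colours overlap in all 10 pairs.

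The factors did not share 1 ranking of the libraries. Among the DOX libraries, IL6, CSF3 and HGF were highest in replicate 2, the library in which IL18 and GDF15 were lowest. Among the DOX+PeptideE libraries, IL6 and GDF15 were highest in replicate 3, where IL18 and HGF were lowest. IL18 in that library was at 58.1% of its DOX mean, and IL6 at 83.8% of its own. CSF3 and HGF were highest in replicate 2 of both groups. As deposited, CSF3, GDF15 and HGF each ordered the replicate numbers alike in both groups, 3 of the 5. After rescaling only HGF did, so these orders depend on the library scale. The share of all listed genes with such a shared order was not computed, so the count cannot be read as a trait of these factors. Replicate numbers were not found to pair the libraries. With groups that were separate or nearly so and 3 libraries in each, a correlation between factors would mostly restate the group difference, and it could not be tested within a group.

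Likeness of pattern was measured as the root mean square difference between profiles of log2(value + 1) over the 6 libraries, each centred on its own mean. The measure includes the group difference for which every listed gene was selected. From IL6, the factors HGF, GDF15 and CSF3 lay at about equal distances, 0.159, 0.163 and 0.164. Among the 401 genes with a symbol and a mean of at least 1, GDF15 ranked 35 and CSF3 ranked 37 in nearness to IL6. IL18 lay farther from IL6, at 0.293 and rank 148. CSF3 and GDF15 were also 0.293 apart, and the smallest distance between any of the factors on this measure was 0.136, between HGF and CSF3. Adding 1 before the log compresses the profiles of low genes, HGF and CSF3 among them. Distances that involve these factors, and their order, therefore depend on the pseudocount and were not computed without it.

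The listed genes nearest to each factor came from varied functions. Nearest to IL6 were FABP3, a fatty acid carrier, at 0.0425, then CIDEB, a lipid droplet protein, at 0.0871 and SERPINB5, a serpin, at 0.0982. FABP3 stood at 10.92, 13.13 and 12.09 in DOX and at 8.82, 8.07 and 9.53 in DOX+PeptideE, so like IL6 it was highest in DOX replicate 2 and lowest in DOX+PeptideE replicate 2. Nearest to IL18 were ZNF593, a zinc finger protein gene, at 0.0335, the mitochondrial inner membrane gene MICOS13 at 0.0475 and the protease inhibitor gene CST6 at 0.0613. ZNF593 stood at 40.2, 36.41 and 45.93 in DOX and at 35.41, 29 and 22.45 in DOX+PeptideE, the same order of libraries as IL18 within each group. For CSF3 the nearest genes were TOX2 at 0.0566, SPP1, which encodes osteopontin, at 0.0792 and BBS10 at 0.0887. GDF15 had no gene as near, with the keratin gene KRT16 at 0.115, CAMKV at 0.125 and HCFC1R1 at 0.126. Nearest to HGF, with genes of low level also admitted, were the phosphatase gene DUSP2 at 0.0351, RANGRF at 0.0512 and MEGF6 at 0.0593.

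**Figure D4:**
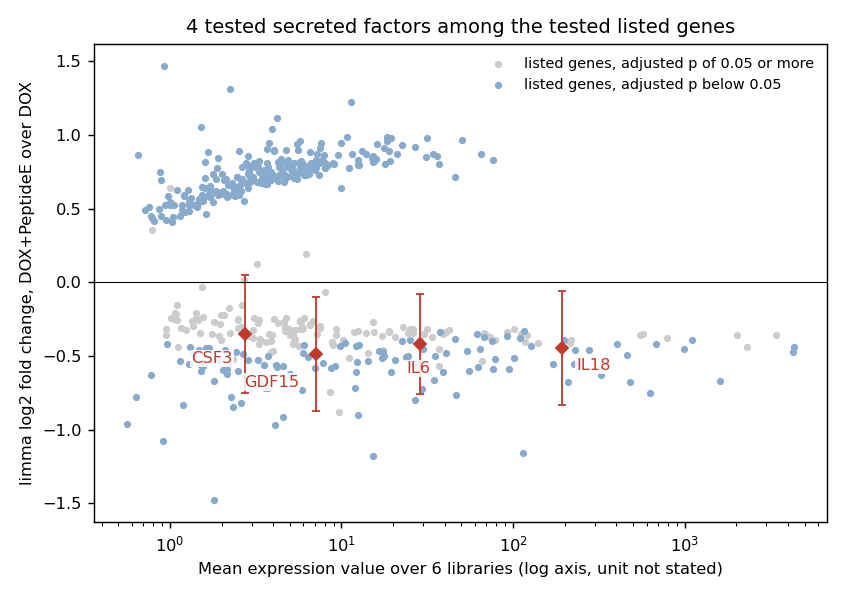
limma log2 fold change of DOX+PeptideE over DOX against the mean expression value over 6 libraries (log axis) for the 499 tested listed genes, blue where the adjusted p is below 0.05. Red diamonds with 95% intervals are IL6, IL18, CSF3 and GDF15, which lie among the other lower genes, and the interval of CSF3 alone crosses 0.

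Little of the surrounding pathways was in the table. None of 10 receptors and binding partners of the 5 factors was listed, such as IL6ST, IL18R1, CSF3R or MET, and none of 19 genes of the JAK-STAT relay and its feedback, such as STAT3 or SOCS3. Unlisted genes were not analysed here. Of 22 processing enzymes and inhibitors, only NLRC4 was listed, a sensor of the inflammasome that activates the protease of IL18. NLRC4 stood at 0.13, 1.02 and 0.33 in DOX and at 0.66, 0.63 and 3.26 in DOX+PeptideE. Its groups overlapped, its highest value lay in 1 library, and it did not pass in limma (log2 fold change 0.64, adjusted p = 0.0861).

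Of 38 other non-chemokine secreted factors of senescent cells, only AREG was listed, which encodes the EGF receptor ligand amphiregulin. AREG fell, with means of 47.2 ± 2.93 in DOX and 34 ± 6.26 in DOX+PeptideE (SD, n = 3 each) and separate groups. Its limma call (log2 fold change -0.48, adjusted p = 0.024) was lost without each of DOX replicates 1, 2 and 3 and without DOX+PeptideE replicate 2, at adjusted p of up to 0.0751. Of the 23 chemokines of the list, 3 were in the table, CXCL8, CXCL10 and CCL8, and all 3 passed as lower, beside 23.6% of all tested genes. Their median log2 fold change was -0.45, close to the -0.41 of the 257 tested genes that were lower, and all tested genes had a median of -0.22. The chemokine gene CCL1, in the table but not on this list, did not pass (limma log2 fold change -0.31, adjusted p = 0.13). CXCL8, which attracts neutrophils, had a limma log2 fold change of -0.45, the interferon-induced CXCL10 -0.56 and the monocyte attractant CCL8 -0.43, values that bracket those of IL18 and GDF15. These limma calls were lost without DOX replicate 3 and without DOX+PeptideE replicate 2. Those of CXCL8 and CCL8 were also lost without DOX replicate 1 or 2, and that of CXCL8 without DOX+PeptideE replicate 3. The highest adjusted p was 0.137 for CXCL8 (log2 fold change -0.29 to -0.55 over the 6 fits), 0.0807 for CXCL10 and 0.0958 for CCL8.

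Transcripts of 2 immediate early transcription factors were higher in DOX+PeptideE. Of 34 regulators of the secretory program and NF-kB feedback genes, FOS and EGR1 were counted as listed, and both rose, beside 47.5% of all tested genes that were higher and passed. FOS, a subunit of AP-1, went from 6.81 ± 0.504 to 14.6 ± 3.03 (limma: 0.98 on the log2 scale, adjusted p = 0.0051) and EGR1 from 6.31 ± 0.128 to 16.5 ± 4.55 (1.23, 0.00315; SD, n = 3 each). Both calls held with any 1 library left out, at limma adjusted p of up to 0.0403. None of the NF-kB and C/EBP genes of the list was in the table. Of 19 inducers and companions of GDF15 in the p53 and stress responses, 3 were listed. EGR1 rose, as above. MDM2, a p53 target, fell, with means of 322 ± 23.3 and 234 ± 15.4 (SD, n = 3 each; adjusted p = 0.0149 in limma). ERN1, a sensor of unfolded proteins, rose, with means of 0.94 ± 0.06 and 1.82 ± 0.48 (SD, n = 3 each; adjusted p = 0.0167 in limma). In limma, MDM2 no longer passed without DOX replicate 2 or 3 or DOX+PeptideE replicate 2 (adjusted p up to 0.0756). That of ERN1 was lost without DOX replicate 1 or DOX+PeptideE replicate 2 or 3 (adjusted p up to 0.06) and after median-centring (log2 fold change 0.23, adjusted p = 0.0888).

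Some epithelial keratins were also lower. Of 15 markers of tubular epithelium, 5 were listed, and KRT18, KRT19 and KRT7 passed as lower, beside 23.6% of all tested genes. AQP1 (limma log2 fold change -0.32, adjusted p = 0.0897) and HAVCR1 (-0.16, 0.405) did not pass, and HAVCR1 overlapped between the groups. The limma call of KRT18 held with any 1 library left out (adjusted p up to 0.044). KRT19 lost its call without DOX replicate 2 or 3 or DOX+PeptideE replicate 2 (adjusted p up to 0.151), and KRT7 without DOX replicate 1 or 3 or DOX+PeptideE replicate 2 (adjusted p up to 0.0741). The summed value of these 5 ran from 864 to 1100 in the DOX libraries and from 580 to 783 in the DOX+PeptideE libraries, none of them at 0. Nearly all of this sum came from KRT18 (means 589 in DOX and 369 in DOX+PeptideE) and KRT7 (415 and 285). None of 20 markers of fibroblasts, immune cells and endothelium was listed. The part of a shift in epithelial transcripts in the values of the secreted factors was not tested.

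**Figure D5:**
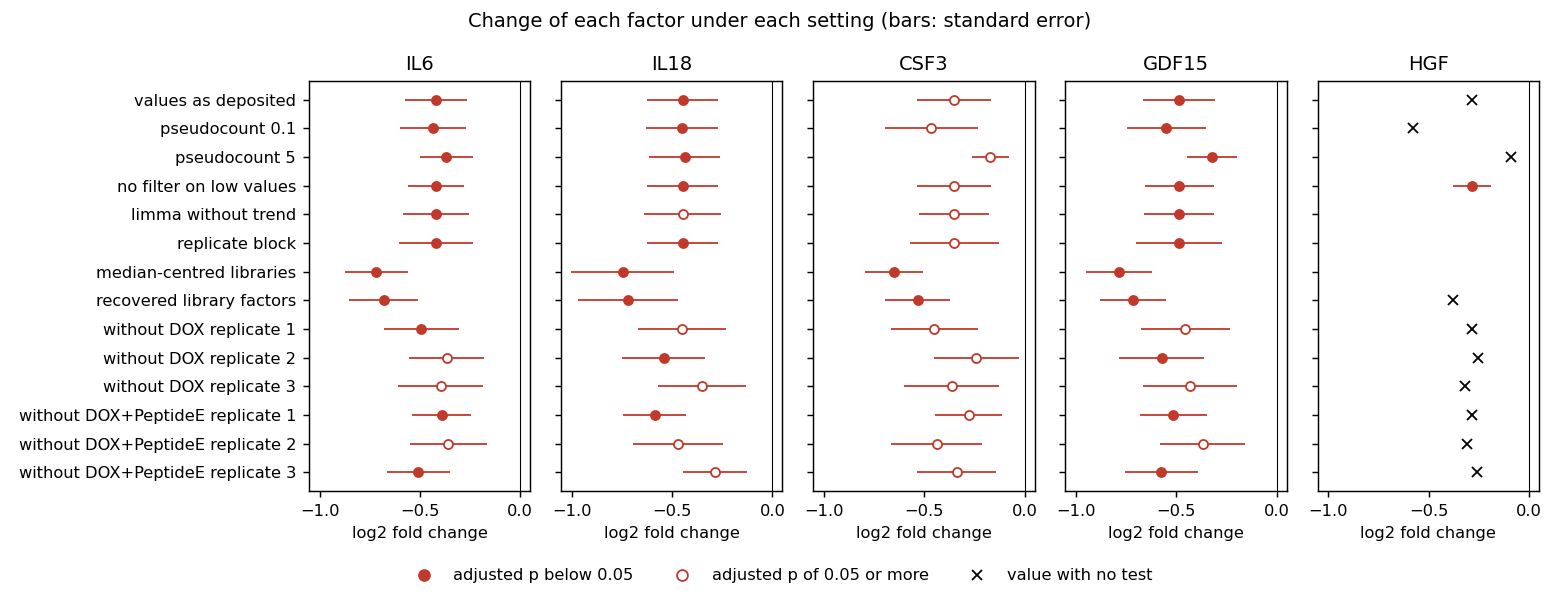
log2 fold change of DOX+PeptideE over DOX (horizontal axis) for each factor under each setting (rows), with bars of 1 standard error. Filled circles have an adjusted p below 0.05, open circles do not, and crosses are values with no test. All points lie below 0, and the filled circles of IL6, IL18 and GDF15 turn open without single libraries.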

How the data were processed

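The deposited table holds a normalized expression signal per gene and library, which the authors computed and gave with 2 decimals and no unit. The name that the authors gave the deposited table refers to RSEM and DESeq. FastQC 0.11.9 and fastp 0.19.5 are named in the submitters' processing notes, and the aligner and genome build are each not given in the sources used here. Deposited by the authors as well are a fold change, its log2 value, and p-values with and without adjustment. No read counts were analysed here, so depth and counting error are unknown.

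Libraries were placed in groups by their titles. Values were transformed as log2(value + 1), and the 499 genes whose DOX or DOX+PeptideE mean reached 1 were fitted with limma 3.58.1 (R 4.3.3) with a variance trend, adjusted by Benjamini-Hochberg over all of them at 0.05. Because these genes had been selected for a difference in the same libraries, the adjustment does not hold false calls to 0.05. Single factors were compared by exact permutation. Library factors were fitted to the authors' log2 fold changes of 196 genes with means of at least 5 in both groups, with a median absolute residual of 0.00593. The fits and the factors were tested on simulated data with noise drawn independently for each gene and library. Such data hold no deviations shared across genes, so the simulation checks the code and not the error rates in these libraries. Alternatives were pseudocounts of 0.1 and 5, no filter, median-centring, the recovered factors, no trend, a replicate block and each library left out. The named genes were the 5 factors, the 3 genes nearest in pattern to each (with a symbol, and a mean of at least 1 unless the factor was lower) and up to 4 listed genes of each list. The lists omit 1 gene of the table, which is not reported here. The factors and lists were chosen with earlier results of these data known. All 5 symbols were found in a RefSeq gene table, whose coordinates were not used since the authors' build is not named. Promoter motifs were not searched, and sequences were not used here.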

Additional observations from a re-analysis of the deposited data

How the results depend on the processing

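No setting changed the sign of any of the 5 factors in 69 values. For IL6, GDF15 and HGF, whose groups do not overlap, only a change of library scale could have done so. Dropping the filter or the trend, or adding the replicate block, leaves the log2 fold change of a tested factor as it was and could not change its sign. The values of HGF with 1 library left out are counted both with and without the filter. CSF3 passed the threshold only on another library scale, at a log2 fold change of -0.65 after median-centring and -0.53 with recovered factors. IL18 stayed at -0.45 without the variance trend but no longer passed. HGF was -0.58 at a pseudocount of 0.1, -0.088 at 5 and -0.38 with recovered factors, with no test. It passed without the filter at -0.28, and without the filter and with recovered factors together at -0.38, a setting chosen after seeing the data, as was leaving out libraries without the filter. Median-centring, the fit without a trend and the replicate block were not run for HGF, which the filter removes. For low genes the log2 change therefore depends on the pseudocount.

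With 1 library left out, log2 fold changes ran from -0.51 to -0.36 for IL6, -0.59 to -0.29 for IL18, -0.45 to -0.24 for CSF3, -0.57 to -0.37 for GDF15 and -0.32 to -0.25 for HGF. Of 6 such fits, 3 called IL6, 2 called IL18 and 3 called GDF15 in limma, while CSF3 kept adjusted p of 0.0933 to 0.287. Without the filter, 1 of 6 called HGF. Over the table, 355 calls became 173 to 412, and 118 lower calls became 37 to 173 (37 without DOX+PeptideE replicate 2, 40 without DOX replicate 3, 49 without DOX replicate 1). Lower calls numbered 250 after median-centring and 246 with recovered factors.

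The replicate block gave 362 calls, 124 of them lower, and left the calls of IL6, IL18, CSF3 and GDF15 on their side of the threshold. Deviations of same-numbered libraries correlated across 499 genes at 0.34, -0.04 and -0.09 for numbers 1, 2 and 3. Between differently numbered libraries the correlations ran from -0.29 to 0.36, the highest for DOX replicate 2 with DOX+PeptideE replicate 3. Same-numbered libraries were thus not consistently alike, but these correlations cannot exclude a paired design.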

Other observations

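The table also lists signalling genes near the 5 factors that belong to none of the lists, named here after their values were seen. All those named had a lower mean in DOX+PeptideE, but other signalling genes of the table were higher and passed in limma. Examples are STC1 (limma log2 fold change 0.61, adjusted p = 0.0143) and ACVR1B (0.81, 0.00752). IL1R2, the decoy receptor of interleukin 1, stood at 0.86, 0.66 and 0.84 in the DOX libraries and at 0.34, 0.44 and 0.24 in the DOX+PeptideE libraries, with separate groups below the level needed for the test. IL1RL1, the receptor of interleukin 33, stood at 2.26, 2.17 and 2.18 in DOX and at 1.1, 2.2 and 2.07 in DOX+PeptideE. Only DOX+PeptideE replicate 1 was clearly lower, and IL1RL1 did not pass in limma (log2 fold change -0.22, adjusted p = 0.272).

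Of the other ligands, TNFSF9 had means of 5.29 and 4.24, WNT7A 3.68 and 2.87, WNT10B 1.76 and 1.35, and the chemokine gene CCL1 6.72 and 5.24, in DOX and DOX+PeptideE in that order. None of these 4 passed in limma on the deposited scale, with adjusted p of 0.13 to 0.233. IGFBP6, a secreted binding protein of insulin-like growth factors, fell, with means of 203 ± 23.6 and 138 ± 19.4 (SD, n = 3 each). In limma its log2 fold change was -0.56 (adjusted p = 0.0118), and the call was lost without DOX replicate 1 or DOX+PeptideE replicate 2 (adjusted p up to 0.0569).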
